A study of Mus musculus with 2 samples.

Results

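Foxf2-FLAG peaks whose centre lay inside an exon, away from the promoters of protein-coding transcripts, are described here. A peak was counted when its centre fell in a coding, 5′ untranslated or 3′ untranslated exon of a protein-coding transcript (GENCODE vM1 on the mouse build mm9) and was more than 1 kb from every transcription start site (TSS) of a protein-coding transcript. This held for 203 of the 9165 peaks (2.21%), of which 94 were in coding exons, 103 in 3′ untranslated regions (3′UTRs) and 6 in 5′UTRs. They lay in 201 host genes on 20 chromosomes. A TSS of a transcript not classed as protein-coding was within 1 kb of 21 of the 203 (10.3%). These were 14 coding peaks (14.9%), 4 3′UTR peaks (3.88%) and 3 5′UTR peaks.

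Both libraries came from palatal shelves of E13.5 mouse embryos homozygous for Foxf2 FLAG, in which genome editing with CRISPR/Cas9 had put a 3xFLAG tag on the endogenous Foxf2 protein. Shelves of 50 pairs were pooled. The comparison was 1 anti-FLAG chromatin immunoprecipitation (ChIP) library of 26849463 tags against 1 input library without antibody, whose depth followed from the deposited values as about 19230000 tags. There was no replicate of either library and no ChIP from embryos without the tag, so a difference between peaks has no replicate check, and markers of the labelled palate cells cannot be examined in a list of ChIP peaks.

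Foxf2 belongs to the forkhead family of transcription factors and acts in the mesenchyme of the palate, and mice without it have a cleft palate. Forkhead proteins bind DNA through a winged-helix domain that reads the core sequence GTAAACA and close relatives of it. Exons are kept in the mature RNA, and coding exons are translated, yet the same DNA can act as an enhancer: exons of the histone deacetylase gene Hdac9, for example, are known to drive expression of the neighbouring gene Twist1 in mouse embryos.

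The DNA at forkhead sites of coding exon and 3′UTR peaks is shown first. Each sequence below is 29 bases of the genome reference of build mm9, 5′ to 3′ on the strand of the site, with the 7-base site in capitals. All were chosen for holding a site, and because they come from the strongest peaks, from repeated sites or from genes of palate development.
Hdac9, centre of the peak, in the intron beside exon 15 (chr12:34737214-34737220, plus strand): gttctgtaaaaATAAACAggcaatcagaa
Hdac9, inside the exon (chr12:34736716-34736722, plus strand): aaagaagtcctGTAAACAatttaagtcta
Snai2, last exon (chr16:14708352-14708358, plus strand): gtcgcttctgcATAAACAtgaggagtctg
Snai2, last exon (chr16:14708403-14708409, minus strand): attctgtttgaGTAAACActggttgcgcc
Gm14409, last exon (chr2:177049849-177049855, minus strand): accctatgaatGTAAACAatgtggtaaag
Zfp931, last exon (chr2:177802557-177802563, minus strand): accctatgaatGTAAACAttgtggtaaag
Frzb, 3′UTR (chr2:80253051-80253057, plus strand): gttctacctttATAAACAtgtataacttt
Bmp7, 3′UTR (chr2:172695113-172695119, minus strand): attctgactttGTAAACAgaagccggggc
Zfp667, 3′UTR (chr7:6259364-6259370, minus strand): ttcttaacaatGTAAACAaatactataag
Sh3pxd2a, 3′UTR (chr19:47339051-47339057, plus strand): gatgttacaatGTAAACAcaatgaccaca
Tbx22, 3′UTR (chrX:104883964-104883970, plus strand): cacattaatctGTAAACAtacattatggt
Trio, 3′UTR (chr15:27700326-27700332, minus strand): gtcagaatattGTAAATAtaaaggctgac

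Peaks in coding exons and peaks in 3′UTRs differed in base composition and in forkhead sites. The coding peaks were mostly GC-rich with few forkhead sites, while the 3′UTR peaks had a lower GC content and held a site more often. A forkhead site is here the sequence GTAAACA, its variant ATAAACA, or the forms of these that end in TA (GTAAATA and also ATAAATA), on either strand within the central 200 bp of the peak. Such a site was present in 20 of 94 coding peaks (21.3%, Wilson 95% interval 14.2 to 30.6%) and in 55 of 103 3′UTR peaks (53.4%, 43.8 to 62.7%), against a background of 40.8% over all 9165 peaks. The shares differed by -32.1 percentage points (Newcombe 95% interval -43.8 to -18.8; odds ratio 0.236; 2-sided Fisher exact test, p = 4.28e-06, Benjamini-Hochberg adjusted p = 2.57e-05 over 6 planned tests).

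The sequence GTAAACA alone gave the same direction. It was present in 6 coding peaks (6.38%) and in 22 3′UTR peaks (21.4%), against 15.3% over all peaks (odds ratio 0.251; Fisher exact test, p = 0.00366, adjusted p = 0.00732). None of the 6 peaks in 5′UTRs had a forkhead site in its central 200 bp.

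The exonic peaks as a whole had forkhead sites less often than the 2799 intronic peaks more than 1 kb from a TSS. The shares were 36.9% (75 of 203) and 51.3% (1436 of 2799), a difference of -14.4 points (-21.0 to -7.29; Fisher exact test, adjusted p = 2.43e-04). For GTAAACA alone the shares were 13.8% and 18.6% and missed the threshold (Fisher exact test, adjusted p = 0.0907), and at a score of at least 30 the direction turned (73.5% of 49 exonic and 64.1% of intronic peaks; odds ratio 1.55, Fisher exact test, p = 0.222). By class, the coding exons were apart: they were below introns by -30.0 points (-37.3 to -20.5; Fisher exact test, p = 5.81e-09). The 3′UTR peaks differed from introns by 2.09 points, and the interval of -7.66 to 11.6 points included 0 (Fisher exact test, p = 0.689). Both of these last tests were added after the planned ones.

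**Figure D1:**
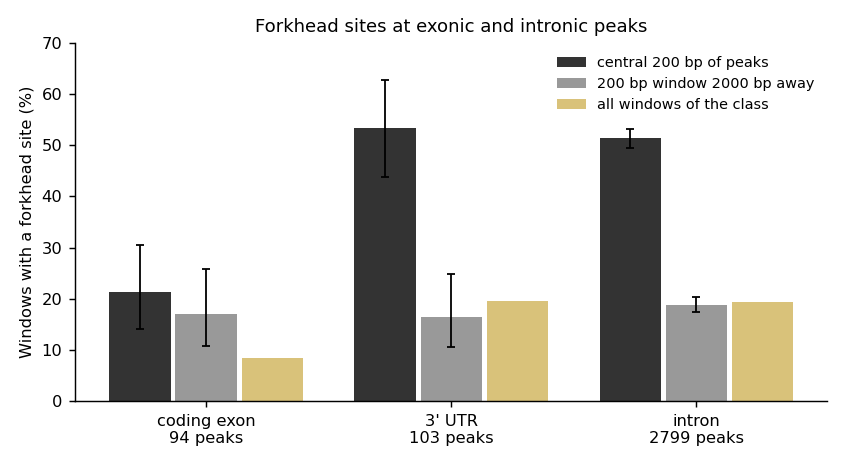
Share of 200 bp windows, in percent, with a forkhead site at peak centres (black), in the window 2000 bp away from the same peaks (grey) and in all windows of the class without regard to peaks (yellow), for coding exons, 3′UTRs and introns. Error bars are Wilson 95% intervals over peaks. Centre and flank are close together in coding exons (21.3% and 17.0%) and far apart in 3′UTRs (53.4% and 16.5%).

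Within the same peak, 3′UTR centres were richer in forkhead sites than their surroundings. The window 2000 bp to lower coordinates held a site in 17 of the 103 3′UTR peaks, a ratio of 3.24 between centre and flank (exact McNemar test, adjusted p = 2.51e-06 over 36 motif tests). ATAAACA was in 24 centres and 4 flanks (exact McNemar test, adjusted p = 5.28e-04), and GTAAACA was in 22 centres and 6 flanks (adjusted p = 0.00794). In coding exons, 20 centres and 16 flanks held a forkhead site, a ratio of 1.25 that did not pass the exact McNemar test (adjusted p = 0.944). ATAAACA was the most frequent form at coding centres, in 14 against 5 flanks, and missed the adjusted threshold too (exact McNemar test, p = 0.0490, adjusted p = 0.177).

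As a measure of what each class holds without regard to peaks, 200 bp windows were taken every 200 bp at exon positions more than 1 kb from a TSS. Such a window can reach past a short exon. A forkhead site was found in 8.45% of 145973 coding windows, in 19.5% of 125517 3′UTR windows and in 19.4% of 441735 intronic windows taken every 2000 bp. GTAAACA was in 2.03%, 3.65% and 3.06% of the same windows. The shares at peak centres were above these values in every class, including coding exons.

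**Figure D2:**
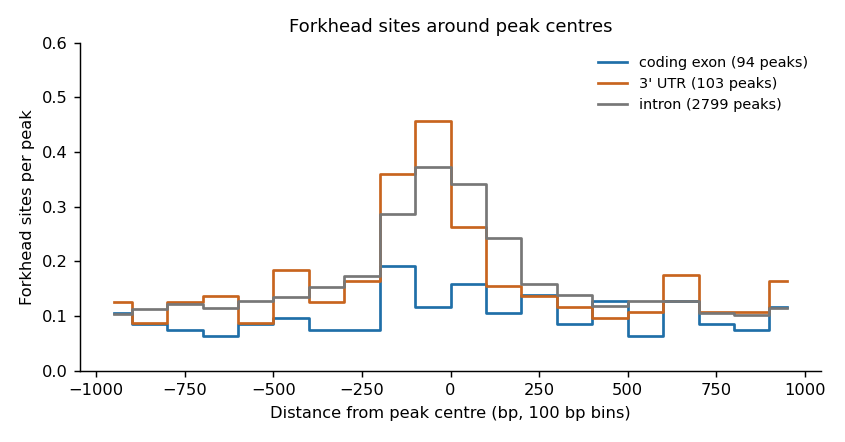
Forkhead sites per peak in 100 bp bins against distance from the peak centre in bp, for coding exon, 3′UTR and intronic peaks. The 3′UTR curve reaches 0.456 sites per peak in the bin just below the centre and the intronic curve reaches 0.373 there, while the coding curve stays at or below 0.191.

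GC content was the other difference. In the central 200 bp, the median GC content of coding peaks was 63% (range 36.5 to 83.5%) and that of 3′UTR peaks was 44% (28 to 80.5%). The flanks of the same peaks had medians of 46.75% and 46%, so the flanks did not share the GC content of the coding centres. Intronic peak centres had a median of 43% and promoter peak centres one of 71%. A GC content of at least 60% was found in 54 coding peaks (57.4%), 11 3′UTR peaks (10.7%), 3.04% of intronic peaks and 78.9% of the 2357 peaks within 1 kb of a TSS. Over all coding windows without regard to peaks this share was 11.6%, and over all 3′UTR windows it was 2.43%. The median GC content of all windows was 50.5% in coding exons and 44% in 3′UTRs, so the 3′UTR peaks had the median of their class.

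Many coding peaks were CpG-rich, the property of CpG islands that most promoters share. A centre with GC above 50% and a ratio of observed to expected CpG above 0.6 was found in 48 of 94 coding peaks (51.1%, 41.1 to 60.9%) and in 8 of 103 3′UTR peaks (7.77%). The difference was 43.3 points (31.2 to 53.9; Fisher exact test added later, adjusted p = 2.46e-11). The same property was found in 79.7% of promoter peaks and 2.82% of intronic peaks, and in 6.60% of all coding windows.

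The difference in forkhead sites between coding exons and 3′UTRs was not detected among peaks of like GC content. Compared within narrow bins of GC content, the Mantel-Haenszel odds ratio was 0.918 (95% interval 0.400 to 2.11; bins 5 percentage points wide), and exonic against intronic peaks gave 1.12 (0.789 to 1.59), both intervals including 1. Of the peaks under 50% GC, 14 of 22 in coding exons (63.6%, 43.0 to 80.3%) and 48 of 73 in 3′UTRs (65.8%, 54.3 to 75.6%) held a site, a difference of -2.12 points with an interval of -25.0 to 18.1. These windows count sites outside the exon too. Among the 14 coding peaks, Hdac9, Gucy2c, Dars, Usp24, Fmnl3, Dync2h1 and Naa30 held central sites only outside the exon. Among the 48 3′UTR peaks, only 6030469F06Rik and Nln did. A central site inside the exon was thus less frequent in coding peaks under 50% GC than in 3′UTR peaks, a contrast given without a test. At GC of 60% and over, 1 of 54 coding peaks and 0 of 11 3′UTR peaks held a site in the window. All exon windows under 50% GC held a site in 15.1% of coding and 24.4% of 3′UTR windows.

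**Figure D3:**
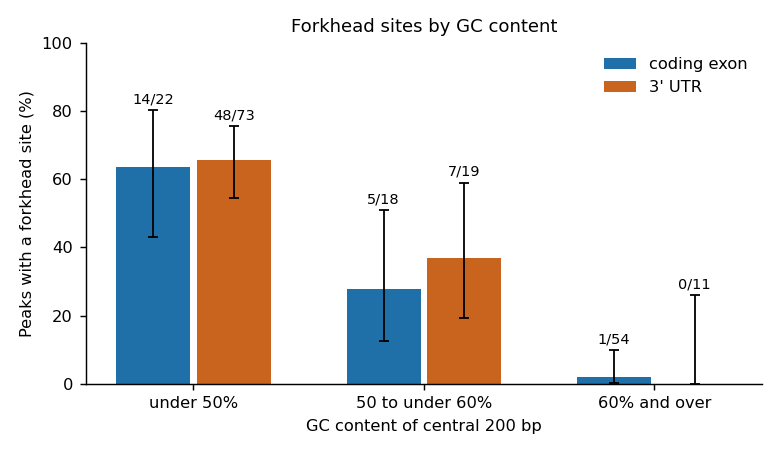
Share of peaks, in percent, with a forkhead site within 3 classes of central GC content, for coding exon and 3′UTR peaks, with Wilson 95% intervals and the number of peaks above each bar. Under 50% GC the shares are 63.6% and 65.8%, and at 60% GC and over 1 of 54 coding peaks and 0 of 11 3′UTR peaks have a site.

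The GC-rich and AT-rich coding peaks also sat in different exons. The 54 coding peaks with at least 60% GC lay in longer exons (median 1585 bp), 13 of them in the only or first exon, and 20 of them had a TSS within 2 kb. The 22 coding peaks under 50% GC lay in short exons (median 196.5 bp), none in an only or first exon, and 1 had a TSS within 2 kb. In these 22, the median centre was 45.5 bp from the edge of the exon and a median of 30.9% of the peak was exonic, so the larger share of a typical peak of this kind lay outside exons.

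A centre in a coding exon did not always place the forkhead site in the exon. Exon bases made up 84.0% of the central windows of coding peaks but held 13 of the 24 forkhead sites, or 0.823 sites per kb, whereas the adjoining bases outside exons held the other 11, or 3.67 per kb (a contrast given without a test). In 3′UTR peaks, 70 of 72 sites were in the exon (3.48 per kb inside and 3.91 per kb outside). The peak reached past its exon in 58 coding peaks (61.7%) and in 28 3′UTR peaks (27.2%).

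Forkhead sites had no detectable preference for a strand of the transcript in the central windows. In 3′UTRs, 29 sites read on the sense strand and 43 on the antisense strand (exact binomial test, 2-sided, p = 0.125). In coding exons 11 were sense and 13 antisense (exact binomial test, p = 0.839). Over whole 3′UTR peaks, rather than their centres, 58 were sense and 86 antisense (exact binomial test, p = 0.0241). Sites were the units of these strand tests. Because 1 peak could hold several sites, the p-values treat sites of the same peak as independent. The forms also differed in number: GTAAACA made up 7 of the 24 sites of coding centres and 26 of the 72 of 3′UTR centres, while ATAAACA made up 15 and 26, GTAAATA made up 2 and 9, and ATAAATA made up 0 and 11.

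Another motif marked the coding centres. The AP-2 sequence GCCNNNGGC, in which N is any base, was in 24 coding centres and 2 of their flanks (ratio 12; exact McNemar test, adjusted p = 9.44e-05) and in 10 centres and 6 flanks of 3′UTR peaks (adjusted p = 0.898). AP-2 factors are expressed in neural crest and facial ectoderm. The sequence was in 11.8% of all peak centres, 31.8% of promoter peaks and 4.61% of intronic peaks, and its letters are GC-rich like the coding centres themselves. The RUNX motif (TGTGGTTA or TGTGGTTT, in 3.24% of all peak centres), the SOX motif (AACAAAG or AACAATG, 10.7%), the TEAD motif (GGAATG, 9.93%), the SP/KLF motif (GGGGCGGGG, 3.99%) and an E-box (CATCTG, 16.1%) passed the adjusted threshold in no class on either strand, and neither did the forkhead letters read in reverse order (18.8%), of which ATAAATA is also a forkhead form.

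Strength was low in most exonic peaks, and the file's measures of strength ordered the classes differently. The median coding peak had 22 ChIP tags (range 14 to 693) and a peak caller's score of 19.5, and the median 3′UTR peak had 28 ChIP tags (14 to 101) and a score of 24. The median input count was 1 tag in each class. At most 20 ChIP tags were counted in 84 exonic peaks (41.4%), against 29.0% of all peaks.

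Coding peaks scored lower. A score above 25, the median of the list, was reached by 25 coding peaks (26.6%) and 43 3′UTR peaks (41.7%), against 48.7% over all peaks. The difference was -15.2 points (-27.6 to -1.86; Fisher exact test, adjusted p = 0.0424). By fold over input the order was the other way. A fold of at least 15 was found in 40 coding peaks (42.6%) and 26 3′UTR peaks (25.2%), against 33.5% over all peaks (difference 17.3 points, 4.10 to 29.8; Fisher exact test, adjusted p = 0.0229). With 1 input tag in the median peak a fold moves in large steps, and 8 coding peaks and 2 3′UTR peaks had no input tag. A fold of at least 20 gave an odds ratio of 1.40 (Fisher exact test, p = 0.436), so the call by fold held at the lower limit and not at the higher one. Both differences missed the threshold in peaks more than 2 kb from a TSS (p = 0.0718 for the score and p = 0.0650 for the fold, Fisher exact tests).

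**Figure D4:**
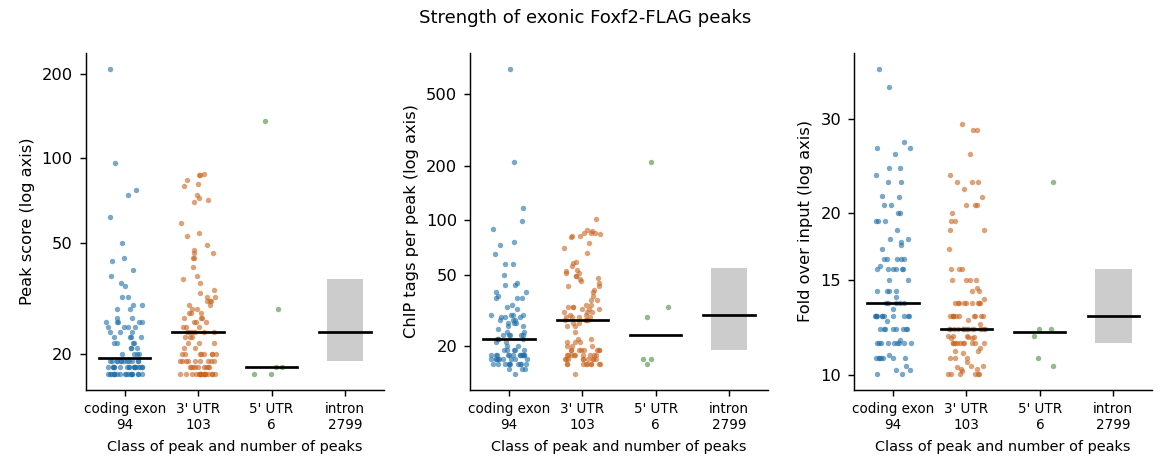
Peak score, ChIP tags per peak and fold over input (log axes) for each exonic peak by class, with a black line at the median, and a grey box from the lower to the upper quartile for the 2799 intronic peaks. Medians of the score are 19.5 in coding exons and 24 in 3′UTRs, and the highest coding peak, in Hdac9, stands at 209.

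The share with a forkhead site was larger among the peaks with higher scores. At a score of at least 30, 29 of 32 3′UTR peaks held a site (90.6%, 75.8 to 96.8%) and 7 of 16 coding peaks did (43.8%), while the share in intronic peaks was 64.1% of 1065. Below that score the shares were 36.6% of 71, 16.7% of 78 and 43.4%. By fold this did not hold in 3′UTRs: the share was smaller in the 26 3′UTR peaks with a fold of at least 15 than in all 103. In the 40 such coding peaks it was slightly larger than in all 94. These contrasts by fold were not tested. At a fold of at least 15, the centre to flank ratio of 26 3′UTR peaks was 2.5, below the 3.24 of all 103. That of 40 coding peaks was 1.43, against 1.25 for all 94. The higher-scoring peaks were also richer in AT, with a median GC content of 40.75% in the 32 3′UTR peaks and 46.75% in the 16 coding peaks. The share also increased with distance from a TSS, from 3 of 36 exonic peaks at 1 to 2 kb to 23 of 69 at 2 to 10 kb and 49 of 98 beyond 10 kb. The mix of classes changed with distance too. At these 3 distances the share was 8% of 25, 10% of 30 and 38.5% of 39 coding peaks. In 3′UTR peaks it was 20% of 5, 51.3% of 39 and 57.6% of 59. At the threshold of the rule, the 7 peaks just outside 1 kb (1 to 1.1 kb) had no site and a median GC content of 73%, and the 4 exonic peaks just inside it (0.9 to 1 kb) had no site and a median of 66.25%.

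**Figure D5:**
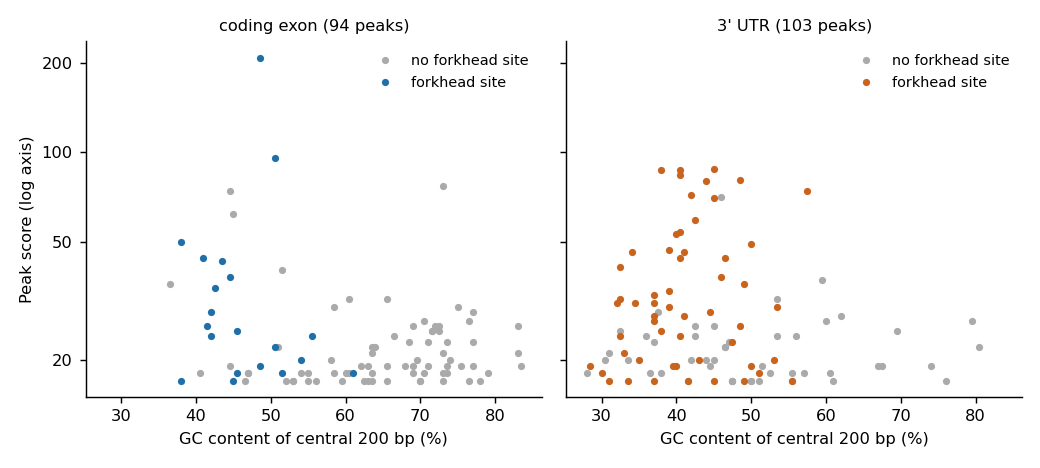
Score of each peak (log axis) against the GC content of its central 200 bp in percent, for coding exon and 3′UTR peaks, coloured where a forkhead site was present. Coloured points lie mainly under 50% GC in both panels (14 of 20 in coding exons and 48 of 55 in 3′UTRs).

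Per length of sequence and over the whole list, 3′UTRs held more peaks than introns did, and coding exons were not detectably different from introns. There were 3.22 peaks per Mb of coding sequence more than 1 kb from a TSS (exact Poisson 95% interval 2.61 to 3.95; 29.2 Mb), 4.10 per Mb of 3′UTR (3.35 to 4.98; 25.1 Mb) and 3.16 per Mb of intron (3.04 to 3.28). Coding exons against 3′UTRs gave a rate ratio of 0.786 (0.588 to 1.05; exact conditional test, p = 0.1002). That ratio passed the threshold beyond 2 kb from a TSS (0.628, p = 0.00314) and at a score of at least 30 (0.431, p = 0.00553), and turned to 1.32 at a fold of at least 15 (p = 0.270, exact conditional tests). Exons of all kinds against introns gave a ratio of 1.17 (1.01 to 1.35; exact conditional test, p = 0.0321), but the call was lost beyond 2 kb from a TSS (ratio 1.07, p = 0.412), and among peaks with a score of at least 30 exons were less dense (0.743, p = 0.0406). The 3′UTRs alone were denser than introns (1.30, 1.06 to 1.58; exact conditional test added later, p = 0.0106, not adjusted), and coding exons had a ratio of 1.02 (0.823 to 1.25). Neither of these 2 ratios was recomputed at a higher score, a higher fold or beyond 2 kb. A score of at least 30 was reached by 32 of 103 3′UTR peaks and by 1065 of 2799 intronic peaks. For a fold of at least 15 the counts were 26 of 103 and 849 of 2799. The 3′UTR excess was thus smaller at both limits. Whether any excess passes the threshold there or beyond 2 kb was not tested. How well reads can be placed in each class of sequence was not modelled.

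The strongest exonic peak was in the coding gene Hdac9, a class II histone deacetylase. It held 693 ChIP tags and 23 input tags over chr12:34736623-34737752, the most ChIP tags of any peak in the list, with a score of 209 and a fold of 21.58 (exact 95% interval 14.3 to 34.3). Its centre was in exon 15 of 16, but 51.6% of the peak was exonic. Of its 7 forkhead sites, 2 were in the exon and 5 in the intron beside it, the central one among the latter. The nearest TSS was that of Twist1, a transcription factor needed for cranial mesenchyme, at 94.7 kb, whereas the TSS of Hdac9 itself was 322 kb away. Whether the peak covers DNA that drives Twist1 was not tested.

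Other strong coding peaks lay in genes of varied function. Rin2, a regulator of endocytosis that binds Rab5, had 99 ChIP tags and 4 input tags (score 96, fold 17.73). Insm2, a zinc-finger gene of neuroendocrine cells, had 76 and 5 tags in its only exon, with 73% GC in the central 200 bp and no forkhead site. Pik3c2g, a class II phosphoinositide 3-kinase, had 211 and 12 tags (fold 12.59, 7.06 to 24.8) over 1432 bp, and its 4 forkhead sites were all outside the exon. Angpt1, the ligand of the vascular receptor Tie2, had 57 and 4 tags and 3 sites, all outside the exon. The exonic share of these last 2 peaks was 21.8% and 31.1%.

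The next coding peaks had lower scores. Gucy2c, the receptor guanylate cyclase of gut epithelium, had 89 ChIP tags and 4 input tags (score 43), and its central site was outside the exon. Frem2, a basement membrane protein of the Fraser complex, had 37 and 2 tags and no central site. The peak in 1700034F02Rik had 117 and 6 tags, with a central GTAAACA in the exon. It lay 23.6 kb from the TSS of Rps27a, a ribosomal protein gene, and 23.8 kb from that of its host.

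Repeated GTAAACA sites lay in coding exons of chromosome 2. The peak in the last exon of Gm14409 (50 ChIP tags and 2 input tags, fold 17.91, 4.70 to 152) held 7 forkhead sites, all on the sense strand and all in the exon. Of these, 6 were GTAAACA spaced by exactly 84 bp, or 28 codons, and 5 of the 6 had identical 29-base surroundings, printed above. The peak in Zfp931, a zinc-finger gene (45 and 3 tags, fold 10.74), held 2 GTAAACA sites 168 bp, or 56 codons, apart, 1 of them outside the annotated exon. Another gene of that chromosome, Etohi1, was singled out after its values were seen: its peak (73 and 3 tags, score 18) held 7 GTAAACA sites, all sense and in the exon, at spacings of 84 bp and once 336 bp. Of them, 5 had the same 29 bases as the Gm14409 site printed above, and none was in the central 200 bp. The central 50 bases of the Gm14409 peak occur 3 times in the genome, and the sources used here do not say how the authors placed reads that match several positions.

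The 10 highest 3′UTR peaks were closer to each other in strength, with 70 to 101 ChIP tags, 4 to 7 input tags and scores of 70 to 88. A central forkhead site was present in 9 of the 10. Trio, a guanine nucleotide exchange factor, had 87 ChIP tags and 6 input tags (fold 10.39, 4.58 to 29.1). Masp1, a serine protease of the lectin pathway of complement, had 88 and 4 tags, and the nearest TSS was that of Rtp1 at 20.3 kb. Sh3pxd2a, a scaffold protein of podosomes, had 82 and 5 tags with GTAAACA in its 3′UTR, and the zinc-finger gene Zfp667 had 85 and 5 tags with GTAAACA as well. The fold intervals of these last 2 peaks overlapped (4.83 to 37.1 and 5.02 to 38.5).

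The rest of these 10 included Frzb and Bmp7, described with their pathways below, and Tsga14, 6030469F06Rik, Gdpd4 and Ypel4. Tsga14 had 84 ChIP tags and 4 input tags, and its centre held the full forkhead core at 57.5% GC, the highest GC of these peaks. Ypel4 had 101 and 7 tags, the most ChIP tags of any 3′UTR peak, and 6030469F06Rik had 70 and 5. Gdpd4, a glycerophosphodiester phosphodiesterase gene, was the exception without a central site: it had 75 and 5 tags, with 2 sites elsewhere in the peak, both outside the exon.

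GTAAACA lay in the exon at the centre of smaller 3′UTR peaks too. Mthfd1l, a mitochondrial enzyme of folate metabolism, had 51 ChIP tags and 3 input tags. Akap11, which anchors protein kinase A, had 49 and 3 tags and 3 central sites. Pdcl, a phosducin-like chaperone gene, had 47 and 3 tags with 2 GTAAACA sites at its centre, and Gm5546 had 46 and 3 tags. The folds of these 4 were between 10.98 and 12.18.

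Some palate regulators and Wnt pathway genes and 1 BMP gene hosted an exonic peak. Among all 22238 protein-coding gene names of the annotation, 201 did (0.904%), and among 60 palate regulators found in it, 5 did. Lists chosen with earlier results known, and genes of unequal exon length, limit this to a description. Snai2, a zinc-finger factor of epithelial-mesenchymal transition, had 40 ChIP tags and 2 input tags (score 35, fold 14.33, 3.71 to 122) and 3 forkhead sites in its last exon, 2 of them central and printed above. Tbx22, the T-box gene of X-linked cleft palate, had 49 and 3 tags in its 3′UTR (chrX:104883796-104884296, fold 11.70, 3.78 to 58.7), with 3 sites in the exon and 2 of them GTAAACA. Peaks with fewer ChIP tags and no central site lay in a coding exon of Runx1 (30 and 2 tags, 71.5% GC), a Runt-domain transcription factor, and in the 3′UTR of Lhx6 (17 and 1 tag), a LIM homeobox gene of the jaw mesenchyme. By score, Runx1 stood at 25, Tbx22 at 24 and Lhx6 at 19.

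Of 29 Wnt pathway genes, 4 hosted an exonic peak, against 0.904% of all genes, and their scores differed widely. Frzb, a secreted antagonist that binds Wnt ligands, had 85 ChIP tags and 6 input tags over its 3′UTR (chr2:80252746-80253246, score 87, fold 10.15, 4.47 to 28.4), with 2 central sites in the exon. Fzd7, a Wnt receptor, had 44 and 2 tags in its only exon, with 69% GC in the central 200 bp and no forkhead site. Tcf7, a nuclear effector of the pathway, had 32 and 1 tag in its 3′UTR, and the ligand gene Wnt5a had 33 and 2 tags in its 5′UTR. Frzb stood well above the other 3 by score (87 against 26, 23 and 17), and by fold the intervals of all 4 overlapped.

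Of 31 genes of TGF-beta and BMP signalling, only Bmp7 hosted an exonic peak. This ligand gene had 81 ChIP tags and 4 input tags in its 3′UTR (chr2:172694894-172695520, score 80, fold 14.50, 5.45 to 54.5), 431 bases past the stop codon of a 3′UTR of 2125 bases, with GTAAACA in both of its sites. No exonic peak fell in the 17 hedgehog, 18 FGF or 37 matrix and adhesion genes found, nor in the 11 epithelial, 9 endothelial and 8 neural marker genes. At the share over all genes, lists of these sizes would mostly hold no host, so nothing is read from their zeros. Being the host of a peak does not show that a gene is its target: the nearest TSS belonged to the host in 72 coding peaks (76.6%) and 66 3′UTR peaks (64.1%).

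Genes hosting 2 exonic peaks were Scml4 and Sobp, which are neighbours on chromosome 10. Within chr10:42650028-42741887 (91.9 kb) there were 6 peaks, of which 4 were exonic and 2 intergenic. Scml4, a gene of the Polycomb family, had 18 ChIP tags and 1 input tag in a coding exon and 32 and 1 in its 3′UTR. Sobp, which codes for a nuclear zinc-finger protein, had 15 and 1 tag in a coding exon and 48 and 3 in its 3′UTR. In each gene the 3′UTR peak had the higher score (32 against 18 and 38 against 17).

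Peaks outside the naming rule had scores of at most 36 in coding exons and 59 in 3′UTRs. The lowest scores, 17 and 18, were found in 35 coding peaks (37.2%) and 26 3′UTR peaks (25.2%), against 22.0% of all peaks.

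The 6 peaks in 5′UTRs all lay 1.01 to 1.47 kb from the TSS of their host. Fign, a microtubule-severing ATPase, had 210 ChIP tags and 14 input tags (score 136, fold 10.74, 6.26 to 19.99) at 41% GC, with 4 forkhead sites in the peak but none in the central 200 bp. The other 5 were Tesk1, Trim71, Tshz1, Wnt5a and Il10rb, with 16 to 33 ChIP tags and scores of 17 to 29. Fign thus stood apart from the rest of this small class.

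Forkhead genes themselves were among the hosts, a set singled out after the values were seen. Foxc1 (30 ChIP tags and 2 input tags), Foxc2 (20 and 1), Foxd1 (23 and 1) and Foxd2 (18 and 1) each had a peak in their only exon at 63.5 to 79% GC and 1.30 to 1.77 kb from the TSS, without a forkhead site. Foxb1 had 34 and 2 tags in its 3′UTR at 48.5% GC, with GTAAACA 2 times at the centre. The coding peaks of this set were thus like the GC-rich coding peaks in general, and Foxb1 was like the other 3′UTR peaks.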

How the data were processed

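Members and gene lists were chosen with earlier results of these data known. The tools named are Bowtie 1.0.0, SAMtools 0.1.19 and HOMER on build mm9, per the submitters' processing notes. Per the file headers, peaks were called once, for the ChIP library against the input library, in HOMER's histone style with a fragment length of 112 bp, at most 1 tag per position, a tag threshold of 17, and at least 10-fold over input and over the surrounding 10000 bp. The deposited signal is ChIP tags scaled to 10000000, and the deposited coverage columns hold ChIP and input tags. Multiplied back by the library total, the signal lay within 0.134 of whole tags. The deposited score, fold ratio and p-value are the authors' own; score and fold were used to describe and filter peaks within the list. Peaks are the units of every test but those of strand, where forkhead sites are, so p-values compare peaks or sites of these 2 libraries. Intervals cover counting error only.

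Peak centres were placed on GENCODE vM1 (NCBIM37, the assembly of mm9) in the order coding exon, 5′UTR, 3′UTR. Of 226 list entries, the number found is given with each list. Fisher exact tests, exact McNemar tests, exact binomial tests, exact conditional rate ratios and Mantel-Haenszel odds ratios used Python 3.11.15 with scipy 1.17.1 and statsmodels 0.14.6, at a threshold of 0.05. The share tests were tested on simulated data first. Hosts were named by rule: the 10 highest-scoring coding and 3′UTR peaks, all 5′UTR peaks, hosts in a gene list, hosts of several peaks, and up to 10 peaks with GTAAACA inside the exon at the centre, 41 peaks in all. The result of 1 list member is not reported here.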

Additional observations from a re-analysis of the deposited data

How the results depend on the processing

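Of 69 recomputed values, 42 kept their direction and their side of the threshold (counts: stayed within 1.5 times). No paired analysis was possible because there was 1 library of each kind. Restricting the list to a score of at least 30 left 49 exonic peaks (16 coding, 32 3′UTR), and to a fold of at least 15 left 67 (40 and 26). The density ratio of coding exons to 3′UTRs passed the threshold beyond 2 kb from a TSS (0.628) and at a score of at least 30 (0.431), and turned to 1.32 at a fold of at least 15. The ratio of exons to introns lost its call beyond 2 kb (1.07), with TSSs of every annotated transcript (1.14) and at a fold of at least 15 (1.28), and reversed at a score of at least 30 (0.743). The forkhead odds ratio of coding exons to 3′UTRs lost its call within GC bins (0.918), at a fold of at least 15 (0.533) and, in alternatives chosen after seeing the data, under 50% GC (0.911) and beyond 10 kb (0.460). That of exons to introns lost its call for GTAAACA alone (0.698) and reversed within GC bins (1.12) and at a score of at least 30 (1.55). The centre to flank ratio lost its call at a fold of at least 15 for exons (1.82) and 3′UTRs (2.5). Beyond 2 kb, the odds ratios for a high score (0.528) and a fold of at least 15 (1.88) lost their calls. Over all coding and 3′UTR peaks, raising the fold limit to 20 lost the call too (1.40). The sense to antisense ratio of coding sites turned to 1.6 when only sites in exons counted, without a call, and that of 3′UTR sites passed the threshold over whole peaks (0.674). For these changes the cause was not tested, and where peaks were left out fewer were compared. With a median of 24 ChIP tags and 1 input tag per exonic peak, the fold of most single peaks is known only within wide intervals.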
